A study of Schizosaccharomyces pombe with 88 samples.

Results

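The response of the fission yeast (Schizosaccharomyces pombe) chk1 mutant to hydroxyurea (HU) was described here from 12 of the 88 arrays of the series. Of these 12 arrays, 6 held chk1 cells given HU and 6 held untreated chk1 cells, with 2 array repeats at each of 40, 80 and 160 min, chosen by the strain, arm and time in the array titles. Cells of every strain were grown at 30 °C and made synchronous by elutriation, which collects cells of like size, and were followed from early G2 phase with no drug or with 8 mM HU. Each array compared cDNA of such a culture (Cy5) with one reference (Cy3), cDNA of wild-type (WT) cells in mid-log growth that were neither synchronised nor treated. Values are log2 ratios of sample over that reference (called levels below), and an HU difference is the level with HU minus the level without it at the same time. WT, rad3 and cds1 cultures, handled the same way and sampled at the same 3 times, gave 12 arrays each for comparison. The labels call the strains mutants and give no allele, and they name 1 culture per strain and arm with technical array repeats, so a p-value covers the spread among these conditions and arrays, which may be technical, and not among cultures. In bulk cultures, fewer cells in a phase and less RNA per cell cannot be told apart.

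Hydroxyurea blocks ribonucleotide reductase, the enzyme that makes deoxyribonucleotides, and so stalls replication forks in S phase. In fission yeast the kinase Rad3 senses stalled forks and damaged DNA and acts through the kinases Cds1, in S phase, and Chk1, in G2, to hold cells out of mitosis. The transcription factor MBF, which contains Cdc10, Res1 and Res2, drives the genes of the G1 to S transition, and its corepressors Nrm1 and Yox1 are known targets of Cds1 when forks stall. Chk1 is known mainly for the response to damaged DNA, and its mutant is commonly set beside cds1 to separate the branches of the pathway.

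The labels were first set against the chk1 gene itself. On the 6 untreated chk1 arrays probe 1 of chk1 read a mean log2 ratio of -1.88 ± 0.41 (SD, n = 6), between -2.48 and -1.37. On the 4 chk1 arrays with HU at 40 and 80 min it read -1.97 ± 0.30 (SD, n = 4). On the 12 WT arrays the mean was -0.32 ± 0.49 (SD, n = 12), and the 36 arrays of the other strains spanned -1.60 to 0.50. The ranges overlapped at one end. A WT array with HU at 160 min (-1.60) lay below the untreated chk1 arrays at 40 min (-1.37 and -1.55). The 2 arrays labelled chk1 with HU at 160 min read -0.786 and -0.788, above every other chk1 array and inside the range of the other strains. In the same condition probe 1 read -0.72 and -1.60 in WT, -1.06 and -0.95 in rad3 and -0.72 and -0.87 in cds1. Probe 2 showed the same order, with means of -0.70 (untreated), -0.71 (HU at 40 and 80 min) and -0.28 (HU at 160 min) on chk1 arrays and -0.11 in WT. On the WT arrays with HU at 160 min the mean of probe 2 was -0.50, below that of the arrays so labelled in chk1. Probe 2 did not set the strain apart, as the 6 untreated chk1 arrays (-0.81 to -0.57) lay inside the range of the 36 others (-0.86 to 0.33). The low signal of probe 1 on the other chk1 arrays of the 12 is called the strain's mark below. It was missing from the arrays labelled HU at 160 min. The mark is not a clean one, given the overlap with WT. Every result at 160 min below is a result of the arrays so labelled.

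**Figure D1:**
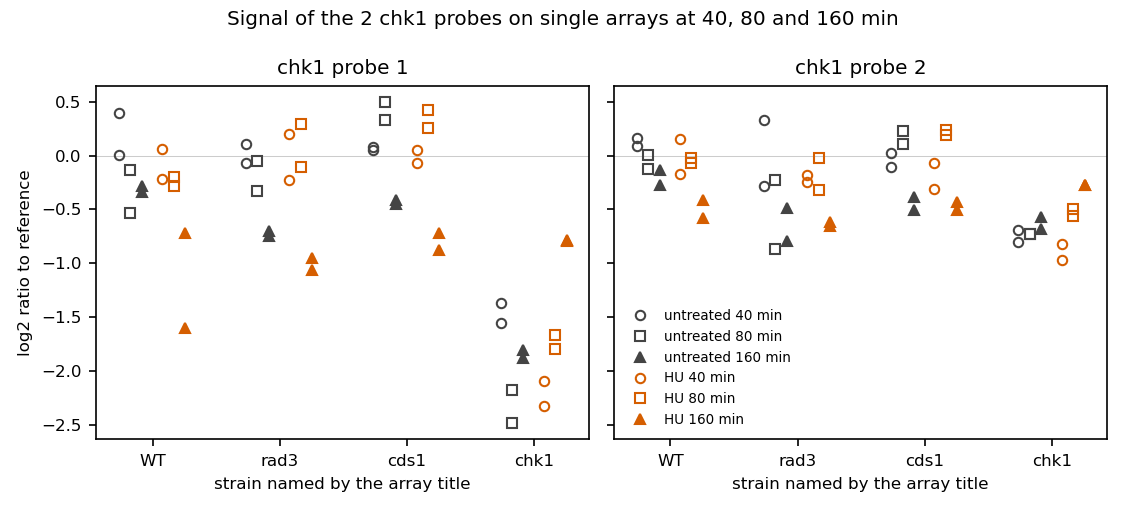
Log2 ratio to the reference of the 2 chk1 probes (left and right) on each array at 40, 80 and 160 min, by the strain in the array title; grey symbols are untreated, orange HU, and the symbol's shape gives the time. On the left, chk1 arrays lie between -2.48 and -1.37 except the 2 with HU at 160 min, at -0.786 and -0.788.

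Those 2 arrays also held nearly one set of values. They gave equal values at 77.05% of probes and correlated at r = 0.9992, against 0.9466% to 1.595% equal values in the other repeat pairs of the 12 arrays, so they carry no repeat of their own. Repeats correlated at r = 0.9832 to 0.9992 in the 6 chk1 conditions and at 0.5092 to 0.7359 in WT. The chk1 arrays at 120 min and those with HU at 200 min were left out because their values match WT arrays. No array of 160 min with HU that carries the strain's mark was used here, so the 160 min result could not be recomputed without the 2 arrays in question, and 160 min is shown apart from 40 and 80 min. Of 5040 genes and unnamed probes tested, 4816 had 1 gene symbol.

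HU differences were small at 40 and 80 min and large at 160 min. The standard deviation of the difference over all genes was 0.21 at 40 min, 0.20 at 80 min and 0.42 at 160 min on the log2 scale. At 160 min 72 genes (1.43%) were over 2-fold higher with HU and 34 (0.675%) over 2-fold lower, against 0 and 5 (0.0992%) at 40 min and 0 and 0 at 80 min. Levels with and without HU correlated over all genes at 0.90 at 40 min and 0.88 at 80 min, and at 0.45 at 160 min (array repeat 1). The HU effect was tested with limma on the 12 differences of the 4 strains and 3 times. The single chk1 difference at 160 min was thus taken to vary like the others. The error came mostly from the differences at 40 and 80 min, which were small. At 160 min only the spread between rad3 and cds1 entered it, so standard errors and p-values at 160 min rest largely on the earlier times. At 160 min 668 genes were called at an adjusted p of 0.05, 311 higher and 357 lower, which is 13.3% of those tested (6.17% higher and 7.08% lower). At 40 and 80 min together limma called 0 genes (0%), with 459 at an unadjusted p under 0.05 and a lowest adjusted p of 0.11.

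The genes of the G1 to S transition gave the largest rises with HU at 160 min. Of 16 measured MBF targets 15 rose and none fell in limma, with a median difference of 3.33, against a median of -0.0015 over all genes. Of all genes 6.17% rose. The gene with the largest rise was cdc22, the large subunit of ribonucleotide reductase. Its level on untreated arrays was -2.46 and -2.46 at 40 min, 0.42 and 0.40 at 80 min and -3.12 and -3.15 at 160 min. With HU it was -2.50 and -2.52 at 40 min, 0.66 and 0.66 at 80 min and 1.42 and 1.42 at 160 min. Both arms thus climbed alike from 40 to 80 min, and only the untreated arm was low again at 160 min, where the arms did not overlap. The difference at 160 min was 4.56 ± 0.18 (SE), limma adjusted p = 5.5e-10.

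Other MBF targets were also far apart at 160 min. For cdc18, whose product loads the replicative helicase at origins, levels at 160 min were -1.94 and -1.88 untreated and 2.39 and 2.39 with HU, while at 80 min they were 1.15 and 1.18 against 1.21 and 1.24. The S phase cyclin gene cig2 stood at -1.81 and -1.86 untreated and 2.01 and 2.01 with HU at 160 min, and at 1.05 and 1.04 against 1.02 and 1.00 at 80 min. In both genes the arms were close at 80 min and did not overlap at 160 min, with differences of 4.30 ± 0.16 and 3.84 ± 0.16 (SE). Rises of 3.30 to 4.14 were also measured for tos4 (an FHA domain protein), cdt2 (the adaptor that sends Cdt1 and Spd1 to degradation), dut1 (dUTPase), mik1 (an inhibitory kinase of Cdc2), ams2 (a GATA factor that activates histone genes) and cdt1 (helicase loading). Smaller rises were those of mrc1 (2.31), a fork protein that carries the signal to Cds1, nrm1 (1.79), the MBF corepressor, ssb1 (1.47), the large subunit of the single-strand binding protein RPA, psm3 (1.34) and rad21 (1.17) of cohesin, and ctp1 (1.28), which acts in DNA end resection. The one member not called was suc22, the small subunit of ribonucleotide reductase, at 0.33 ± 0.14 (SE), limma adjusted p = 0.13.

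Levels in the untreated chk1 culture change with time, so the levels at 160 min were also set against its other sampled times. On the 8 untreated chk1 arrays of 40, 80, 160 and 200 min, 12 of the 16 MBF targets were highest at 80 min and 4 at 200 min. On the arrays of 200 min probe 1 of chk1 read -1.69 and -1.07, the second inside the range of the other strains given above. With HU at 160 min 14 of the 16 were above all 8 untreated arrays, where 23.8% of all genes were, and their level lay by a median of 0.43 above the highest untreated mean. For cdc22 that margin was 0.81, for cdc18 it was 1.22 and for cdt2 it was 1.68, while rad21 lay below its untreated peak by -0.27. The HU differences at 160 min were thus measured against untreated levels near their lowest. Samples at 120 min were not used, so the untreated range has a gap there.

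**Figure D2:**
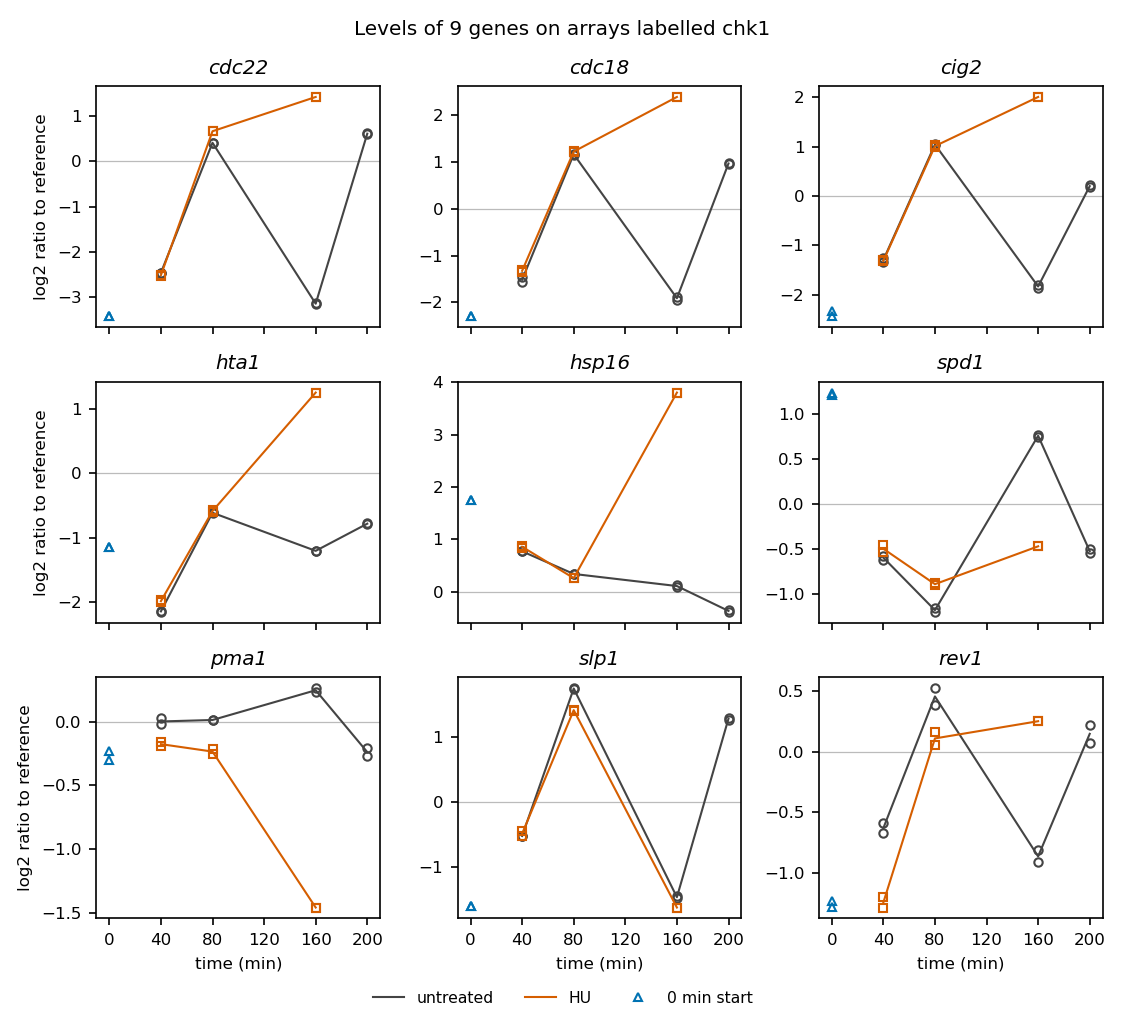
Log2 ratio to the reference of 9 genes on arrays labelled chk1 against time in min; grey circles are untreated, orange squares HU, blue triangles the start, and lines join the means of 2 array repeats. The arms nearly coincide at 40 and 80 min for cdc22, cdc18, cig2 and hta1 and part at 160 min, while slp1 is low in both arms at 160 min.

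Beside the 6.17% of all genes that rose and the 7.08% that fell, smaller lists were counted. Among the genes for MBF itself, 2 of 6 rose and none fell, with a median of 0.20. These were nrm1 and rep2 (1.32 ± 0.16 SE), a zinc finger activator subunit. The core subunits cdc10 (0.23), res1 (0.07) and res2 (0.18) and the activator rep1 (-0.23) were not called. In the supply of deoxyribonucleotides 3 of 7 genes rose (cdc22, cdt2 and dut1) and 1 fell. That gene was spd1, the small inhibitor of ribonucleotide reductase, whose level at 160 min was 0.77 and 0.75 untreated and -0.47 and -0.47 with HU. The difference was -1.23 ± 0.15 (SE), limma adjusted p = 8e-05, yet the level with HU lay inside the untreated range, which ran from -1.19 at 80 min to 0.77 at 160 min. On the chk1 arrays where cdc22 was above 0, in either arm, spd1 was below 0.

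Of 14 genes of the checkpoint pathway mrc1 alone was called, and the median of the list was 0.02. Calls made up 13.3% of all genes, 6.17% higher and 7.08% lower. rad3, the sensor kinase, differed by 0.01 and cds1 by 0.03, and neither was called. chk1 itself differed by 0.70 ± 0.23 (SE), limma adjusted p = 0.057, which is the signal of the strain mark described above. Of 13 regulators of the cyclin-dependent kinase 6 rose and 1 fell (median 0.40). Beside cig2 and mik1 these were srw1 (0.86), which targets mitotic cyclins for degradation in G1, cdr2 (0.69), a kinase that holds back Wee1, with one further member, and the phosphatase gene cdc25 (0.47). The one that fell was wee1 (-0.80 ± 0.16 SE), the main inhibitory kinase of Cdc2. Of the kinases that inhibit Cdc2, mik1 thus rose and wee1 fell.

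Of 9 measured core histone genes 8 rose and none fell, with a median of 2.41, where 6.17% of all genes rose. hta1, a gene for histone H2A, read -1.20 and -1.21 untreated and 1.26 and 1.26 with HU at 160 min. Its levels at 80 min were -0.62 and -0.61 against -0.58 and -0.59, so the untreated arrays were slightly lower there, and the arms were apart at 160 min by 2.46 ± 0.19 (SE), limma adjusted p = 5.7e-07. The H4 gene hhf1 went from -1.45 and -1.45 to 1.50 and 1.50, a difference of 2.96 ± 0.19 (SE). The H3 gene hht2 was the exception at 0.12 ± 0.16 (SE), with levels between -0.31 and 0.12 on all 12 arrays, and so barely followed the cell cycle in either arm. In the untreated arm 8 of the 9 histone genes were highest at 80 min and hht2 at 160 min. With HU at 160 min all 9 were above all 8 untreated arrays, where 23.8% of all genes were. The median margin over the highest untreated mean was 1.65, and for hta1 it was 1.87. No untreated array between 80 and 160 min was used. The highest untreated mean may thus lie below the untreated peak of these genes, and whether HU levels exceeded that peak was not tested. Copies of one histone are close in sequence, and whether each probe tells its copy apart was not tested.

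Cohesin, the ring that holds sister chromatids together, had 6 of 9 genes that rose and none that fell, with a median of 0.65. Of all genes 6.17% rose. Beside psm3 and rad21 these were psc3 (0.90), psm1 (0.65), eso1 (0.86), which joins a cohesin acetyltransferase to a translesion polymerase, and one further member. At the kinetochore 1 of 14 genes rose and 1 fell, a share of calls near the 13.3% of all genes. They were cnp1 (0.88 ± 0.16 SE), the centromeric histone H3 variant, and spc7 (-0.50), a scaffold of the outer kinetochore.

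The lists of replication and repair genes, which share members with the groups above, held calls in both directions. Over all genes 6.17% rose and 7.08% fell. Of 45 replication factors 5 rose and 4 fell, with a median of -0.06. The MBF targets cdc18, cdt1 and ssb1 were the largest rises, and the replicative helicase gene mcm3 (-0.94 ± 0.14 SE) and the origin recognition gene orc4 (-0.88 ± 0.15 SE) the largest falls. mcm3 read 0.07 and 0.05 untreated and -0.88 and -0.88 with HU at 160 min. Of 36 repair genes 4 rose and 3 fell (median -0.08). The rises were those of rad54 (1.69 ± 0.15 SE), a motor of homologous recombination, rev1, a translesion polymerase, and ctp1 and eso1, already counted above. The largest fall was that of rad16, an endonuclease subunit of nucleotide excision repair, from 0.60 and 0.57 to -1.02 and -1.02, by -1.61 ± 0.14 (SE). No untreated chk1 array at 40, 80 or 160 min was below 0.57 for rad16.

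Of 32 genes of mitosis and cytokinesis 3 rose and 1 fell at 160 min, with a median of 0.04, a share of calls near the 13.3% of all genes. The rises were those of klp8 (1.07), a kinesin gene, mob1 (0.54), a partner of the septation kinase Sid2, and cdc25. cut1, the separase that cleaves cohesin, fell by 1.21 on the log2 scale. slp1, the activator of the anaphase-promoting complex, read -1.49 and -1.45 untreated and -1.63 and -1.63 with HU at 160 min, against 1.76 and 1.75 untreated and 1.41 and 1.43 with HU at 80 min. Both arms were thus high at 80 min and low at 160 min, and the difference at 160 min was not called (-0.16 ± 0.28 SE, limma adjusted p = 0.75). The polo kinase gene plo1 (0.19), the contractile ring gene cdc15 (0.07) and the septum glucanase gene eng1 (0.08) were not called either.

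Of 19 measured chaperone genes, whose products refold or dissolve damaged proteins, 9 rose and 1 fell at 160 min, with a median of 0.61, where 6.17% of all genes rose. hsp16, a small heat shock protein, read 0.77 and 0.77 at 40 min, 0.35 and 0.34 at 80 min and 0.09 and 0.13 at 160 min without HU. With HU it read 0.84 and 0.88, 0.26 and 0.26, and 3.80 and 3.80. The arms lay within 0.2 of each other at 40 and 80 min and were 3.69 ± 0.29 (SE) apart at 160 min, limma adjusted p = 7.2e-07. Rises were also measured for hsp104 (2.31 ± 0.30 SE), the disaggregase, psi1 (1.76), an Hsp40, aha1 (1.53), a cochaperone of Hsp90, and hsp78 (1.46), the mitochondrial disaggregase. On both arrays with HU at 160 min 16 of the 19 were above all 8 untreated arrays, against 23.8% of all genes.

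Of 25 genes of the core environmental stress response, which fission yeast turns on through the kinase Sty1 and the factor Atf1, 5 rose and 2 fell (median 0.19). The rises were led by ntp1 (1.42), trehalase, tps1 (1.38), trehalose phosphate synthase, and gst2 (1.33), a glutathione transferase. The falls were those of gut2 (-0.88), a mitochondrial glycerol phosphate dehydrogenase, and of atf1 itself (-0.81 ± 0.17 SE), from 0.26 and 0.24 to -0.57 and -0.57. hsp9 (-0.45), ish1 (0.17) and pyp2 (-0.13), stress genes that Sty1 is known to control, were not called. Of 15 redox genes grx1 (0.59), a glutaredoxin, and pap1 (0.44), the oxidative stress factor, rose and none fell. Of 33 proteasome genes pre3 (0.56), a core particle subunit, was the only one called, with a median of 0.28 for the list. For the stress, redox and proteasome counts, the shares over all genes were 6.17% higher and 7.08% lower.

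The genes of ribosomes and of their assembly lay lower with HU at 160 min. The shares called over all genes were 7.08% lower and 6.17% higher. Of 126 ribosomal protein genes 13 fell and none rose, with a median of -0.36, and 2 of the 126 differences were above 0. The lowest was rpl1603, from 0.26 and 0.29 to -0.68 and -0.72, by -0.97 ± 0.16 (SE), limma adjusted p = 0.0012. Most of these genes have a paralog of close sequence, and whether the probes tell them apart was not tested. Of 62 ribosome biogenesis genes 11 fell and none rose (median -0.35), led by utp21 (-1.42 ± 0.15 SE), a part of the small subunit processome, rrp5 (-1.08) and rrp1 (-0.75). The counts moved with the processing: with array repeat 1 left out 1 ribosomal protein gene and 2 biogenesis genes were called, and with repeat 2 left out 4 and 5. After quantile normalization 50 and 27 were called, all lower. Over all genes 104 were called lower without repeat 1, 187 without repeat 2 and 653 of 5040 after quantile normalization. Of 56 mitochondrial ribosomal protein genes 2 rose (mrps16 at 0.78 among them) and 2 fell (mrpl51 at -0.80 among them). Their median was -0.15, and 13.3% of all genes were called.

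Outside the lists the largest fall at 160 min was that of pma1, the plasma membrane proton pump. It read 0.23 and 0.26 untreated and -1.45 and -1.45 with HU, while at 40 and 80 min the arms stood between 0.02 and -0.26. At 160 min the arms were 1.7 log2 units apart (-1.70 ± 0.18 SE, limma adjusted p = 2.1e-05). Next came noc201 (-1.53), which acts in ribosome assembly, lsk1 (-1.36), a kinase of the RNA polymerase II tail, sum3 (-1.34) and dbp2 (-1.26), DEAD-box RNA helicases, asp1 (-1.25), an inositol pyrophosphate kinase, and sap1 (-1.23), an essential DNA-binding protein of replication and mating-type switching. With HU at 160 min 319 of the 357 genes that fell were below all 8 untreated chk1 arrays, where 24.9% of all genes were. Of the 311 that rose 260 were above them, against 23.8% of all genes; the calls and these counts use the same arrays.

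Of 25 mating and meiosis genes 4 rose and none fell, with a median of 0.24, where 6.17% of all genes rose. ste6, the exchange factor of Ras1 in mating, was the main one, from -0.97 and -0.88 to 2.14 and 2.14, by 3.06 ± 0.18 (SE), and without HU it was highest at 80 min (0.67 and 0.74). The others were the kinase gene spk1 (0.86), the transcription factor gene map1 (0.85) and rec12 (0.57), the nuclease of meiotic breaks. Of 13 iron uptake genes fio1 (-0.85), the iron oxidase, and str1 (-0.69), a siderophore transporter, fell and none rose, where 7.08% of all genes fell, with a median of 0.03 that became -0.11 after quantile normalization. Of 17 genes of glycolysis and fermentation none was called. Of 6 genes used as auxotrophic markers none was called, and ura4 differed by -0.35.

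At 40 and 80 min none of the lists had a called member. The 16 MBF targets had median differences of 0.03 at 40 min and 0.09 at 80 min, and the 9 histone genes 0.03 and -0.12. The highest mean of the 2 times was that of SPOM_SPBC3B8.06, with differences of 0.75 and 0.84 and a limma adjusted p of 0.11. nde1, an NADH dehydrogenase of mitochondria, read 0.81 and 0.82 untreated and 1.15 and 1.17 with HU at 40 min, and 0.42 and 0.40 against 1.01 and 1.01 at 80 min. The arms of nde1 did not overlap at either time, and its mean difference of 0.47 did not pass the test. The other high values were those of alg9 (0.51), pmp20 (0.50) and stt4 (0.50). The lowest were arp10 (-0.78 ± 0.19 SE), a dynactin component, meu10 (-0.70), SPOM_SPAC7D4.08 (-0.70), SPOM_SPAC9E9.17C (-0.67) and SPOM_SPAC212.02 (-0.62). All of these are values and not calls.

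**Figure D3:**
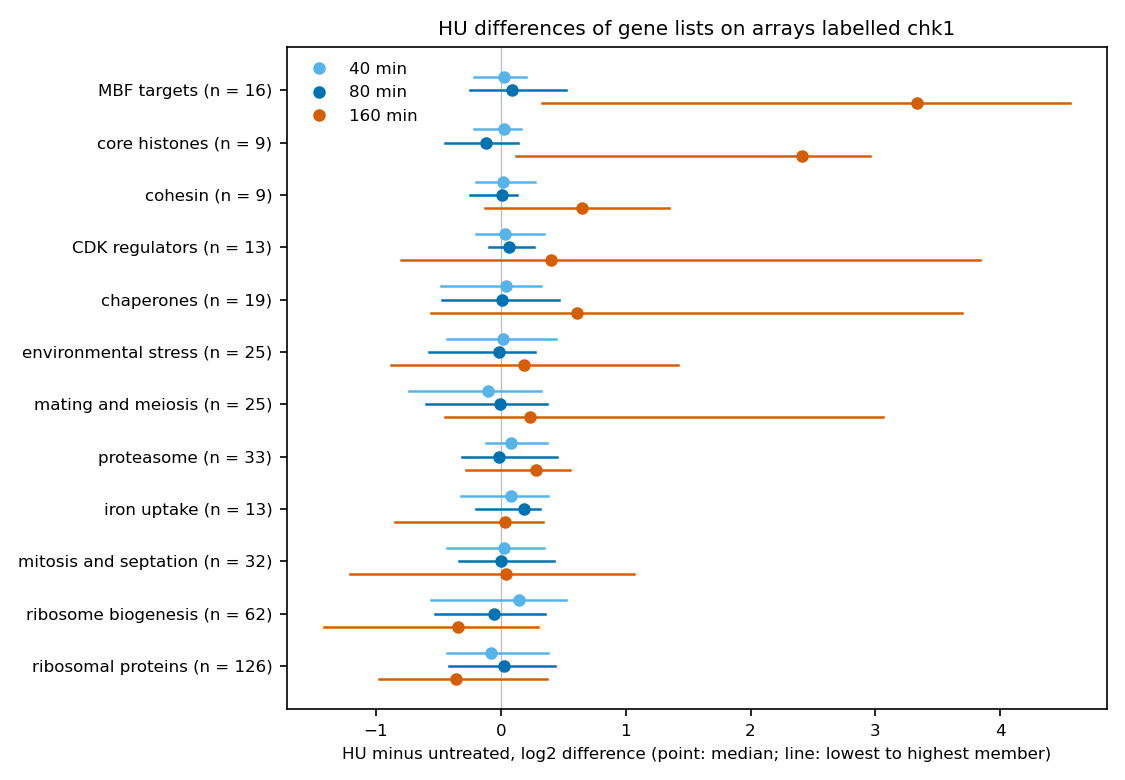
HU minus untreated log2 difference of 12 gene lists on arrays labelled chk1; points are medians over the list's genes and lines run from the lowest to the highest gene, in light blue for 40 min, dark blue for 80 min and orange for 160 min. Medians lie between -0.12 and 0.19 at 40 and 80 min, and the MBF targets (3.33) and core histones (2.41) stand farthest to the right at 160 min.

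The difference between times was tested directly. The HU effect at 160 min minus that at 40 and 80 min was called in limma for 324 genes (6.43%), 156 higher (3.1%) and 168 lower (3.33%). cdc22 (4.46), cdc18 (4.18), cdt2 (3.998), tos4 (3.97) and cig2 (3.87) had the largest positive and utp21 (-1.51), pma1 (-1.49), spd1 (-1.42), noc201 (-1.41) and rad16 (-1.39) the largest negative values. The mean of the 3 times was called for 191 genes (3.79%), 114 higher (2.26%) and 77 lower (1.53%), and it held all 16 MBF targets (median 1.12) and 8 of the 9 histone genes (median 0.80). Most of the large means came from 160 min: for cdc22 the mean was 1.59 ± 0.10 (SE), from differences near 0 at 40 min and 4.56 at 160 min. Some genes had like differences at each time. suc22 differed by 0.19, 0.41 and 0.33, with a mean of 0.31 ± 0.08 (SE) and a limma adjusted p of 0.046. ump1, a proteasome assembly factor, had a mean of 0.42, and leu1, of leucine synthesis, also 0.42, with limma adjusted p of 0.026 and 0.049. On the low side were rpc10, a subunit shared by RNA polymerases, at -0.52, pop23 at -0.50 and ssm4, a dynactin component, at -0.48.

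Set against WT, the response labelled chk1 at 160 min was called for a single gene. limma called 1 gene of 5040 (0.0198%), with 384 at an unadjusted p under 0.05. WT repeats correlated less well than chk1 repeats, as given above, and the difference of both strains rests on 1 culture each. The called gene was rev1. On chk1 arrays it read -0.91 and -0.81 untreated and 0.25 and 0.25 with HU, and on WT arrays -1.43 and -1.59 untreated and 1.36 and 1.24 with HU. Levels with HU were lower and untreated levels higher on the chk1 arrays than on the WT arrays, with no overlap. The HU difference was 1.11 labelled chk1 and 2.81 in WT, a gap of -1.70 ± 0.24 (SE), limma adjusted p = 0.024. The call was lost without repeat 1 (adjusted p = 0.36), without repeat 2 (0.91) and after quantile normalization (0.17), and the 2 probes of rev1 gave gaps of -0.74 and -2.65.

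Gaps of the MBF targets to WT ran from -0.16 to 0.84, with a median of 0.12, and none of 16 was called. For cdc22 the HU difference was 4.70 in WT, from -2.81 and -2.44 to 1.83 and 2.32, a gap of -0.14 ± 0.25 (SE). For cdc18 it was 4.16 in WT, a gap of 0.14 ± 0.23 (SE). The largest gap was that of cdt2, 0.84 ± 0.25 (SE), limma adjusted p = 0.40. The histone genes had a median gap of 0.81 and all 9 gaps were above 0, but none passed the test. hhf1 had the widest, 1.05 ± 0.26 (SE), limma adjusted p = 0.37: WT rose from -0.60 and -0.19 to 1.26 and 1.75, so that levels with HU overlapped those labelled chk1 (1.50 and 1.50) and untreated chk1 levels (-1.45 and -1.45) were the lower ones. hta1 had the same order, with WT at -0.68 and 0.35 untreated. For hsp16 the gap was -1.14 ± 0.40 (SE), limma adjusted p = 0.50, with WT levels of 0.83 and 0.94 untreated and 5.62 and 5.81 with HU. WT had 450 calls (8.93%), 236 higher (4.68%) and 214 lower (4.25%). Of the 311 genes that rose labelled chk1 163 were also called higher in WT (52.41% of those labelled chk1 and 69.07% of the 236 of WT), and 302 had the same sign. Of the 357 that fell 132 were also called lower in WT (36.97% and 61.68%), and none of either group was called the opposite way.

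At 40 and 80 min limma called 0 genes between chk1 and WT (0%), with 302 at an unadjusted p under 0.05. The highest gap was again that of SPOM_SPBC3B8.06 (1.03, limma adjusted p = 0.235), followed by nde1 (0.69), the translation initiation helicase gene tif1 (0.66), rit1 (0.65) and izh3 (0.64). The lowest were SPOM_SPAC212.02 (-1.07), SPOM_SPAC869.09 (-0.93), the meiotic kinase gene spo4 (-0.93), SPOM_SPAC1A6.11 (-0.82) and SPOM_SPAC7D4.08 (-0.81).

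Set against rad3 and cds1 together, the response labelled chk1 at 160 min was called for 168 genes (3.33%), 67 higher (1.33%) and 101 lower (2%). Of the 67 higher genes 15 were MBF targets, out of 16 measured, with a median gap of 2.66 over the list. cdc22 differed by 0.88 in rad3, from -1.61 and -1.18 to -0.32 and -0.72, and by 0.58 in cds1, from -2.11 and -2.07 to -1.53 and -1.49. Both mutants with HU stayed below 0, against 1.42 labelled chk1, and the gap was 3.83 ± 0.22 (SE). The gaps of cdc18 (3.62), cig2 (3.55), tos4 (3.44) and cdt2 (3.41) were next. Of the 9 histone genes 7 were higher (median gap 1.43). With HU hta1 read 1.15 and 0.78 in rad3, 0.86 and 1.05 in cds1 and 1.26 and 1.26 labelled chk1. Untreated it read -0.08 and 0.01 in rad3, -0.10 and -0.07 in cds1 and -1.20 and -1.21 in chk1, so the strains lay farther apart without HU than with it. Of the 9 cohesin genes psm3, rad21 and eso1 were higher.

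Iron uptake genes were also higher than in rad3 and cds1, in 5 of 13 cases with none lower (median gap 0.55). Over all genes 1.33% were higher and 2% lower. str3, a siderophore transporter family member, read 2.05 and 2.11 untreated and 2.38 and 2.38 with HU labelled chk1. In rad3 it went from 2.20 and 2.30 to 0.49 and 0.58, and in cds1 from 1.92 and 1.86 to -0.29 and -0.28. Levels with HU were thus below the untreated ones in rad3 and cds1 and above them labelled chk1, and the gap was 2.25 ± 0.21 (SE), limma adjusted p = 1.3e-05. Among the others were fip1 (1.46), the iron permease, and str1 (0.99). After quantile normalization 3 of the 13 were called higher, against 88 of 5040 over all genes.

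The environmental stress genes made part of the lower side, with 7 of 25 lower, none higher and a median gap of -0.35. Over all genes 2% were lower. hsp9 read 0.92 and 0.92 untreated and 0.47 and 0.47 with HU labelled chk1. It went from 1.70 and 1.89 to 2.56 and 2.87 in rad3 and from -0.13 and -0.09 to 1.92 and 2.00 in cds1. Levels with HU were thus higher in both mutants than in either chk1 arm, and the gap was -1.94 ± 0.31 (SE), limma adjusted p = 0.0024. ish1, a stress protein of the nuclear envelope, had a gap of -1.39 and pyp2, a phosphatase of Sty1, one of -1.48. Outside the list meu14 (-1.72), of the forespore membrane, SPOM_SPAPB2B4.06 (-1.64), wss2 (-1.52) and mug135 (-1.50) were the lowest. After quantile normalization 2 of the 25 stress genes were called lower, against 65 of 5040 over all genes. The share of higher genes among all calls went from 67 of 168 to 88 of 153. Chaperones did not differ in any called gene, with a median gap of -0.14 that turned to 0.13 after quantile normalization. The HU difference of hsp16 was 3.69 labelled chk1, 2.85 in rad3 and 4.07 in cds1.

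**Figure D4:**
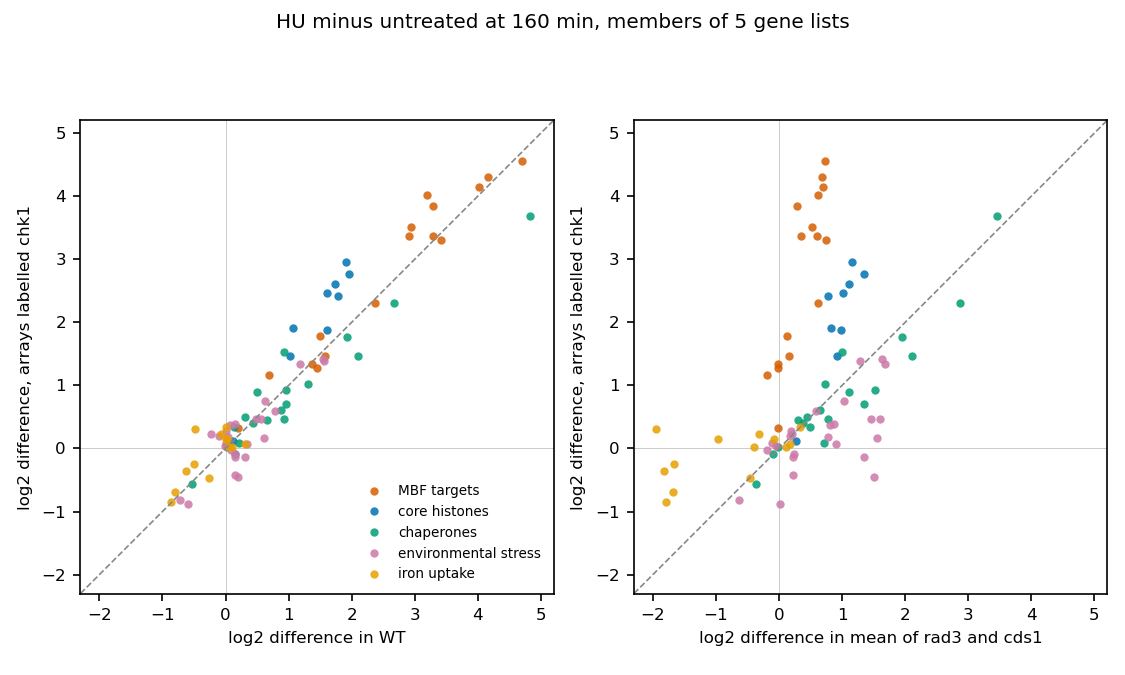
HU minus untreated log2 difference at 160 min of single genes of 5 lists, labelled chk1 (vertical) against WT (left) and against the mean of rad3 and cds1 (right); the dashed line marks equal values. MBF targets and histones lie near or above the line on the left and nearly all above it on the right, where their median gaps are 2.66 and 1.43.

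Genes called in rad3 and cds1 were more numerous than those labelled chk1, at 1941 (38.5%; 21.5% higher and 17% lower) against 668. That contrast averages 2 strains, so its error is smaller and the counts are not comparable. Of the 311 genes that rose labelled chk1 226 (72.67%) also rose in rad3 and cds1, and of the 357 that fell 231 (64.71%) also fell. These were 20.89% and 26.89% of the calls in those mutants. In the opposite direction 2 of the 311 and 9 of the 357 were called.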

How the data were processed

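The deposited values are log2 ratios, Cy5 sample over Cy3 reference per the labels. How spots were filtered, corrected for background, normalized and centred is not given in the sources used here. Of 9858 probes 9632 had 1 gene symbol, 44 several and 182 none, from the platform annotation, and 9582 symbols were updated through an ASM294v3 gene table used for names only. The table is 99.401% complete. Arrays have no read depth, and their number limits the precision.

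Probes of a gene were averaged. 2 units with values on under 80% of arrays were not tested, leaving 5040. The 2 probes of a gene correlated at a median of 0.59 over the 12 chk1 arrays. Array repeats were averaged, and HU minus untreated differences at 40, 80 and 160 min in 4 strains (12 differences, 48 arrays) were fitted with limma 3.58.1 (lmFit, eBayes) in R 4.3.3. The fit had 6 coefficients (chk1, WT, and rad3 with cds1, each at 40 and 80 min and at 160 min) and 6 residual degrees of freedom. P-values were Benjamini-Hochberg adjusted over all genes, with a threshold of 0.05. The code was tested on simulated data. Values after ± are standard errors (SE) of the fit unless named SD.

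Repeat numbers did not pair samples: deviations of same-numbered arrays correlated at 0.02, -0.003 and 0.17. Per comparison the rule named up to 12 called genes each way, 5 members of each list, 5 values each way where nothing was called, every MBF target and core histone, and set landmark genes. The members and gene lists were chosen with earlier results of these data known. Ribosomal lists were taken by symbol pattern, which also catches rpp1 and rpp40. Alternatives are given in the closing section. Promoter motifs and sequences were not analysed here.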

Additional observations from a re-analysis of the deposited data

Results flagged for a closer look

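Differences between times or strains that passed their own test in limma were as follows, with the mark of the strain missing from the arrays labelled chk1 with HU at 160 min in each case. Between 160 min and the mean of 40 and 80 min 324 genes differed. The largest differences were those of cdc22 (4.46), cdc18 (4.18), cdt2 (3.998), tos4 (3.97) and cig2 (3.87) upward. Downward they were those of utp21 (-1.51), pma1 (-1.49), spd1 (-1.42), noc201 (-1.41) and rad16 (-1.39).

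Between the response labelled chk1 and that of WT at 160 min 1 gene differed, rev1 at -1.70. Between it and the mean of rad3 and cds1 168 genes differed. The largest positive differences were those of cdc22 (3.83), cdc18 (3.62), cig2 (3.55), tos4 (3.44) and cdt2 (3.41). The largest negative ones were those of hsp9 (-1.94), meu14 (-1.72), SPOM_SPAPB2B4.06 (-1.64), wss2 (-1.52) and mug135 (-1.50).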

How the results depend on the processing

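Counts of called genes moved most with the unit of replication, while the direction of called genes did not. Each setting reuses the same chk1 cultures, and the arrays with HU at 160 min are nearly identical. The unchanged direction is thus weak support. At 160 min (668 called) 220 to 364 were called with an array repeat left out, of which 219 of 220 and 363 of 364 were among the 668. With chk1 arrays taken as samples 4209 were called, with the replicate block 4203, and with the 2 near-identical arrays counted as 1 (added after seeing the data) 3895. Quantile normalization gave 1177 and single probes 223. At 40 and 80 min (0 called) the counts were 3762, 3735 with the replicate block, 3626 with those arrays as 1, and 1 with no filter on missing values. For the mean of 3 times (191) they were 32 to 51 without a repeat, 4051, 4037 with the replicate block, 3835, 108 with WT and chk1 only, 387 after quantile normalization, 40 for single probes, 85 without 80 min and 0 for the 3 chk1 differences alone (limma, 303 at an unadjusted p under 0.05). For 160 min minus 40 and 80 min (324) they were 99 to 178 without a repeat, 4067, 4060 with the replicate block, 3760, 630 after quantile normalization, 101 for single probes, 102 without 40 min and 118 without 80 min. Against WT at 160 min (1) the rev1 call was lost with either repeat left out, and without repeat 2 another gene was called, as higher. The count was 0 with WT and chk1 only, after quantile normalization and for single probes (limma, 444, 537 and 721 at an unadjusted p under 0.05). Against WT at 40 and 80 min (0) it was 1 without 80 min. Against rad3 and cds1 (168) it was 48 to 117 without a repeat and 49 for single probes. The split of higher and lower calls there was 67 and 101, and it became 88 and 65 after quantile normalization, 74 and 79 with each array centred on its median, 33 and 15 without repeat 1 and 36 and 13 for single probes. For the mean (114 and 77) it became 28 and 4 without repeat 1, 36 and 15 without repeat 2, 31 and 9 for single probes and 60 and 25 without 80 min. For 160 min minus 40 and 80 min (156 and 168) it became 66 and 33 without repeat 1, 70 and 31 for single probes, 75 and 27 without 40 min and 75 and 43 without 80 min. Over the named genes 3191 alternative values kept their direction and call, 241 gained a call, 178 lost it, and eng1 at 160 min became -0.68 after quantile normalization (limma adjusted p = 0.049). The cause of these changes was not tested. Fits of chk1 arrays alone give no value for comparisons with other strains, and fits of WT and chk1 give none for rad3 and cds1. The 160 min response has 1 difference per strain and rests on arrays that lack the strain's mark.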

Other observations

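The start of the chk1 time course, at 0 min, belongs to no HU comparison. There the 25 environmental stress genes had a median log2 ratio to the reference of 2.66, against 0.06 at 40 min in the untreated arm and 0.24 with HU at 160 min. hsp16 read 1.75 and 1.75 at 0 min, spd1 1.22 and 1.24, and cdc22 -3.40 and -3.42. The 16 MBF targets had a median of -1.83 and the 9 core histone genes one of -0.85. The levels of MBF targets at 0 min were near those of the untreated arm at 160 min, where the median was -1.65.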
